A study of Mus musculus with 6 samples.

Results

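The genes described here are 10 genes of fibroblast growth factor (FGF) signalling and of the feedback on its main intracellular branch, the ERK kinase cascade. They were taken by symbol from a fixed list, 2 ligands (Fgf4, Fgf5), 2 receptors (Fgfr1, Fgfr2), 4 feedback inhibitors (Spry2, Spry4, Spred1, Dusp6) and 2 transcription factors (Etv4, Etv5), and all 10 were found among the 52870 gene rows of each file. Their transcripts were quantified by RNA sequencing in C57BL/6 mouse embryonic stem cells, with 3 libraries of Rbbp4-/- cells, called the knockout here, and 3 libraries of Rbbp4F/F cells, which the series title calls the control. Rbbp4 encodes a histone-binding subunit of chromatin complexes such as NuRD and Polycomb repressive complex 2. The labels give neither the means of deletion nor the number of cell clones, the culture medium or the time since deletion, nor whether the replicates were separate cultures. The p-values therefore measure the spread between these libraries, which may be technical.

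In embryonic stem cells FGF4 made by the cells themselves is the main ligand that activates ERK, through the receptor FGFR1 with FGFR2 as a minor partner. ERK activity moves the cells out of naive pluripotency and, in the embryo, separates primitive endoderm from epiblast. Active ERK induces its own inhibitors. Sprouty and Spred proteins act upstream in the cascade, and the phosphatase DUSP6 removes phosphate from ERK itself. The ETS factors ETV4 and ETV5 are transcribed in response to FGF and are used, with Spry4 and Dusp6, as readouts of the pathway.

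Levels are in FPKM, which corrects for transcript length and library size, so genes can be compared with each other. Depth, estimated from the steps between low values, was 25500000 to 28900000 fragments per library. A single fragment on a 2 kb transcript then equals 0.0200 to 0.0227 FPKM. Rbbp4 itself had 21.3, 12.7 and 11.1 FPKM in the knockout libraries, against 58.5, 57.0 and 61.8 FPKM in the control libraries. Knockout replicate 1, with the most Rbbp4, stood apart from the other knockout libraries on the second principal component, which carried 9.36% of the variance. Of 13579 genes tested with limma, 59.1% had an adjusted p under 0.05, 36.7% higher and 22.5% lower in the knockout, and over all those tested the log2 fold change had a median of 0.17. That median was -0.04 with median-ratio scaling, -0.07 with upper-quartile scaling and 0.31 with equal FPKM sums, so small changes depend on the scaling. Of 8 pluripotency markers 7 were lower, and their summed level was 1390 to 2180 FPKM in the knockout libraries and 4710 to 4850 FPKM in the control libraries. Of 8 trophoblast markers 7 were higher, with summed levels of 2210 to 3990 FPKM in the knockout libraries and 112 to 170 FPKM in the control libraries. Most of that sum came from the keratin genes Krt8, with means of 1590 FPKM in the knockout and 65.8 FPKM in the control, and Krt18, with 1570 and 55.5 FPKM. The lineage factor genes Cdx2 (1.52 FPKM in the knockout, 0.06 FPKM in the control) and Gata3 (5.17 and 0.603 FPKM) were low although higher in the knockout. Hand1 (68.1 and 6.84 FPKM) and Tfap2c (26.1 and 16.7 FPKM), also factor genes, were higher in the knockout at greater levels. So was the keratin gene Krt7 (42.9 and 2.93 FPKM), and Elf5 (1.99 and 1.29 FPKM) was not called. Of 8 fibroblast markers, chosen for feeder cells, 7 stayed under 1 FPKM in every library, among them the collagen gene Col1a1 at 0.360 to 0.540 FPKM. The exception was Thy1, which was lower in the knockout. Of those under 1 FPKM, all but Col1a1 had a higher mean in the knockout, for example Col3a1 with 0.403 FPKM against 0.04 FPKM in the control. Of 8 primitive endoderm markers 4 were tested, of which 2 rose and 1 fell. The fall was that of Lama1, with 3.65 FPKM in the knockout against 23.1 FPKM in the control. Those not tested (Gata6, Foxa2, Sox7, Pdgfra) were low and each had a higher mean in the knockout, for example Gata6 with 0.903 FPKM against 0.113 FPKM. Fewer cells of a type and less RNA per cell cannot be told apart in such bulk libraries, and the part of these marker shifts in the results was not tested.

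Among the 9 members that passed the filter of 1 FPKM in 3 libraries, 4 fell (Fgf4, Spry4, Etv5, Fgfr1), 1 rose (Spry2) and 4 were not called (Fgfr2, Spred1, Dusp6, Etv4). The 55.6% of members called lay near the 59.1% of all tested genes, so the number of calls does not set the members apart. The median log2 fold change of the tested members was -0.30, beside 0.17 over all tested genes. Fgf4, Spry4 and Etv5 fell by more than 3-fold in FPKM, and 7.12% of all tested genes were called and at least 2-fold lower on the log2 scale. The other calls were small and did not survive every scaling.

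**Figure D1:**
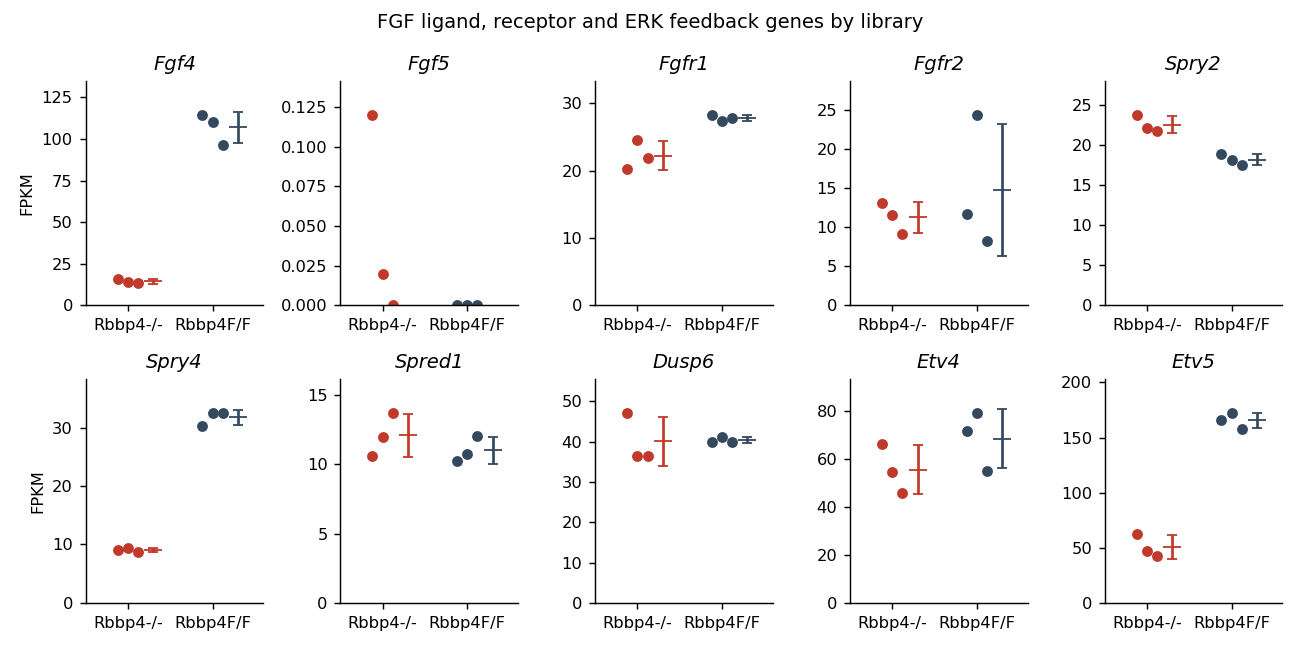
FPKM of the 10 member genes in each library, with Rbbp4-/- left (red) and Rbbp4F/F right (dark), each panel starting at 0 on its own scale. Points are libraries and bars are mean ± SD (n = 3 per group, no bar for Fgf5, which lies at or near 0). Fgf4, Spry4 and Etv5 lay at 13.1 to 15.8, 8.67 to 9.38 and 42.3 to 62.4 FPKM in Rbbp4-/- libraries, well below the Rbbp4F/F libraries, while Dusp6, Etv4, Fgfr2 and Spred1 overlapped.

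Fgf4, the autocrine ligand (ENSMUSG00000050917, GRCm38 chromosome 7, 144847367 to 144865243, plus strand), had the lowest log2 fold change of the members. It had 15.8, 14.3 and 13.1 FPKM in the knockout libraries, against 114, 110 and 96.6 FPKM in the control libraries. The groups lay far apart, and the highest knockout library was under the lowest control library by a wide margin. The means were 14.4 ± 1.36 FPKM in the knockout and 107 ± 9.32 FPKM in the control (SD, n = 3 each), which left 13.5% of the control level (log2 fold change -2.81 with an SE of 0.10, limma adjusted p = 1.48e-05). By log2 fold change it was the 44th lowest of 13579 tested genes. Among tested genes outside the pathway and marker lists, the 3 whose centred log2 profile over the 6 libraries lay nearest to that of Fgf4 were Gpx2, Lefty2 and Prx, at Euclidean distances of 0.162, 0.294 and 0.295, where the median distance of all such genes was 3.70. With only 2 groups such nearness mostly reflects a fall of similar size.

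Fgf4 lies between 2 other ligand genes on the same strand. As GENCODE M21 draws Fgf4, Fgf3 ends 2930 bases before it and Fgf15 begins 31287 bases after it. RefSeq starts Fgf4 14019 bases further in, so Fgf3 lies further from that start. Fgf15, a ligand known as an intestinal hormone in the adult mouse, had 0.550, 0.290 and 0.320 FPKM in the knockout libraries and 1.21, 1.13 and 1.38 FPKM in the control libraries (log2 fold change -0.70, limma adjusted p = 0.00511). Exons of antisense genes cover 25.7% of the exonic length of Fgf15, and it is not known whether strand was used in counting. Fgf3, named after its values were seen, had 3.13, 1.41 and 1.27 FPKM in the knockout libraries and 3.76, 2.48 and 1.78 FPKM in the control libraries, with overlap between the groups (-0.34, 95% CI -1.04 to 0.35, limma adjusted p = 0.347). Both neighbours were low in either group, and of the pair only Fgf15 was called.

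Fgf5, a ligand of the primed state that follows naive pluripotency (ENSMUSG00000029337, chromosome 5, 98254184 to 98277030, plus strand), was the member that did not pass the filter. It was listed at 0.120, 0.0200 and 0 FPKM in the knockout libraries and at 0 in each control library. On its 2501-base transcript 1 fragment is worth 0.0155 to 0.0176 FPKM at the estimated depth, so the values stand for few or no fragments. No fold change can be given against a group at 0.

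Of the 2 receptor genes, one was called by a small margin and the other was not called. Fgfr1 (ENSMUSG00000031565, chromosome 8, 25513654 to 25575718, plus strand) had 20.2, 24.5 and 21.9 FPKM in the knockout libraries, against 28.2, 27.3 and 27.7 FPKM in the control libraries. All knockout libraries lay below all control libraries, as in 25.5% of all tested genes. The means were 22.2 ± 2.15 FPKM in the knockout and 27.7 ± 0.455 FPKM in the control (log2 fold change -0.31 with an SE of 0.09, limma adjusted p = 0.0246). The call was lost with equal FPKM sums (-0.16, limma adjusted p = 0.220), and without knockout replicate 3 (limma adjusted p = 0.0578) or control replicate 1 (0.0863), 2 (0.0651) or 3 (0.0668). Over the 13 alternatives the limma adjusted p of Fgfr1 lay between 0.00225 and 0.220.

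Fgfr2 (ENSMUSG00000030849, chromosome 7, 130162451 to 133123350, minus strand), also the receptor through which FGF4 maintains trophoblast stem cells in the mouse, had 13.1, 11.5 and 9.16 FPKM in the knockout libraries and 11.7, 24.4 and 8.29 FPKM in the control libraries. Control replicate 2 was high and the groups overlapped. As GENCODE M21 draws this gene, exons of Ctbp2 on the same strand cover 3% of its exonic length. RefSeq places a start of Fgfr2 2856542 bases inside the gene so drawn. The log2 fold change was -0.24 (95% CI -1.08 to 0.59, limma adjusted p = 0.577), and it turned to 0.16 (limma adjusted p = 0.541) without control replicate 2, and the interval spans both a 2-fold fall and a moderate rise. Fgfr1 stood above Fgfr2 in every library, and the log2 ratio of Fgfr2 to Fgfr1 was -0.99 ± 0.33 in the knockout and -1.06 ± 0.81 in the control (SD, n = 3 each).

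Of the Sprouty pair, Spry4 fell. Spry4 (ENSMUSG00000024427, chromosome 18, 38586247 to 38601415, minus strand) had 9.02, 9.38 and 8.67 FPKM in the knockout libraries, against 30.3, 32.5 and 32.4 FPKM in the control libraries. With a single annotated transcript of 4755 bases, these values stand for an estimated 1038 to 1153 fragments in the knockout libraries and 3717 to 3922 fragments in the control libraries, so counting error is small. The means were 9.02 ± 0.355 FPKM in the knockout and 31.7 ± 1.28 FPKM in the control, 28.4% of the control level (log2 fold change -1.71 with an SE of 0.09, limma adjusted p = 3.59e-05).

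Spry2 (ENSMUSG00000022114, chromosome 14, 105891947 to 105896819, minus strand), a paralog that inhibits the same step, had 23.7, 22.2 and 21.8 FPKM in the knockout libraries, against 18.9, 18.1 and 17.6 FPKM in the control libraries. The groups did not overlap, and 41.3% of all tested genes likewise had every knockout library above every control library. The log2 fold change was 0.30 (limma adjusted p = 0.0199, SE 0.08), which is 0.13 above the median of all tested genes. Median-ratio scaling ended the call (0.08, limma adjusted p = 0.470), and so did upper-quartile scaling (0.04, limma adjusted p = 0.700), while Spry2 stayed called with equal FPKM sums (0.45, limma adjusted p = 0.00278). It was also lost without knockout replicate 2 (limma adjusted p = 0.0570) or control replicate 1 (0.0516), 2 (0.0634) or 3 (0.0638). The 3 genes outside the lists with the nearest centred profile were Mrpl22, Med15 and B3galnt1, at distances of 0.0777, 0.0806 and 0.0816, where the median distance was 0.809.

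The ratio within a library does not depend on scaling. The log2 ratio of Spry4 to Spry2 was -1.4, -1.24 and -1.33 in the knockout libraries, against 0.68, 0.84 and 0.88 in the control libraries. Spry4 was thus the higher of the pair in each control library and the lower in each knockout library. The mean ratio was -1.32 ± 0.08 in the knockout and 0.80 ± 0.11 in the control, a difference of -2.13 (exact permutation test over 20 regroupings, two-sided p = 0.1, the smallest that 3 against 3 libraries allow, adjusted p = 0.15 over the 3 pairs tested).

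Of the ETS pair, Etv5 fell. Etv5 (ENSMUSG00000013089, chromosome 16, 22381309 to 22439719, minus strand), the member with the highest level in the control, had 62.4, 47.5 and 42.3 FPKM in the knockout libraries, against 166, 172 and 158 FPKM in the control libraries. The means were 50.7 ± 10.5 FPKM in the knockout and 165 ± 7.25 FPKM in the control, 30.6% of the control level (log2 fold change -1.70 with an SE of 0.14, limma adjusted p = 1.29e-04). Knockout replicate 1 was the highest of the knockout libraries, and without it the log2 fold change was -1.86.

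Etv4 (ENSMUSG00000017724, chromosome 11, 101769742 to 101785371, minus strand), which shares the ETS domain of Etv5, had 66.3, 54.8 and 45.9 FPKM in the knockout libraries and 71.7, 79.4 and 55.0 FPKM in the control libraries. The groups overlapped, through knockout replicate 1 and control replicate 3. The log2 fold change was -0.30 (95% CI -0.71 to 0.12, limma adjusted p = 0.181), and Etv4 passed as lower with median-ratio scaling (-0.52, limma adjusted p = 0.0426) and upper-quartile scaling (-0.56, limma adjusted p = 0.0336). The log2 ratio of Etv5 to Etv4 was -0.09, -0.21 and -0.12 in the knockout libraries, against 1.21, 1.12 and 1.52 in the control libraries. The mean ratio differed by -1.42 between the groups (exact permutation test, two-sided p = 0.1, adjusted p = 0.15). For the receptors the same difference was 0.07 (exact permutation test, two-sided p = 0.8, adjusted p = 0.8).

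**Figure D2:**
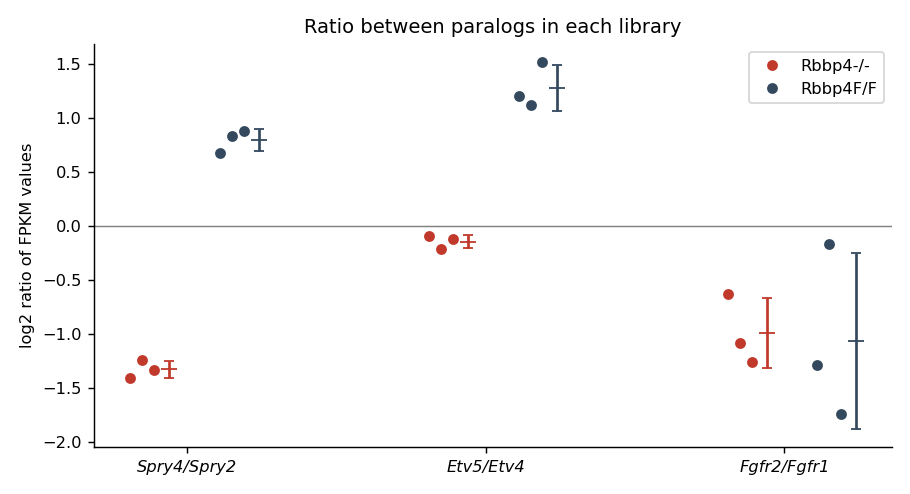
Log2 ratio of FPKM between the members of 3 paralog pairs in each library, with Rbbp4-/- left (red) and Rbbp4F/F right (dark), where points are libraries and bars are mean ± SD (n = 3). The ratio of Spry4 to Spry2 lay at -1.4 to -1.24 in Rbbp4-/- and 0.68 to 0.88 in Rbbp4F/F libraries, and that of Etv5 to Etv4 at -0.21 to -0.09 and 1.12 to 1.52, while the receptor ratios overlapped.

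Dusp6, the ERK phosphatase gene (ENSMUSG00000019960, chromosome 10, 99263231 to 99267489, plus strand), had 47.1, 36.5 and 36.5 FPKM in the knockout libraries and 40.0, 41.2 and 40.0 FPKM in the control libraries. Knockout replicate 1 lay above all control libraries and the other knockout libraries below them. The log2 fold change was -0.02 (95% CI -0.29 to 0.25, limma adjusted p = 0.880), and its sign changed with equal FPKM sums (0.13) and without knockout replicate 2 or 3 (0.04 each). Without knockout replicate 1 it was -0.14 (limma adjusted p = 0.0629). With the values as deposited, the interval of Dusp6 does not reach the log2 fold changes of Spry4 (-1.71) or Etv5 (-1.70).

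Spred1, an inhibitor that recruits the Ras GTPase activator neurofibromin (ENSMUSG00000027351, chromosome 2, 117121374 to 117182279, plus strand), had 10.6, 11.95 and 13.7 FPKM in the knockout libraries and 10.2, 10.8 and 12.1 FPKM in the control libraries. The groups overlapped, with a log2 fold change of 0.12 (95% CI -0.18 to 0.42, limma adjusted p = 0.433) that turned to -0.09 and -0.12 under median-ratio and upper-quartile scaling. Relative to the median of all tested genes the change of Spred1 was -0.05.

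**Figure D3:**
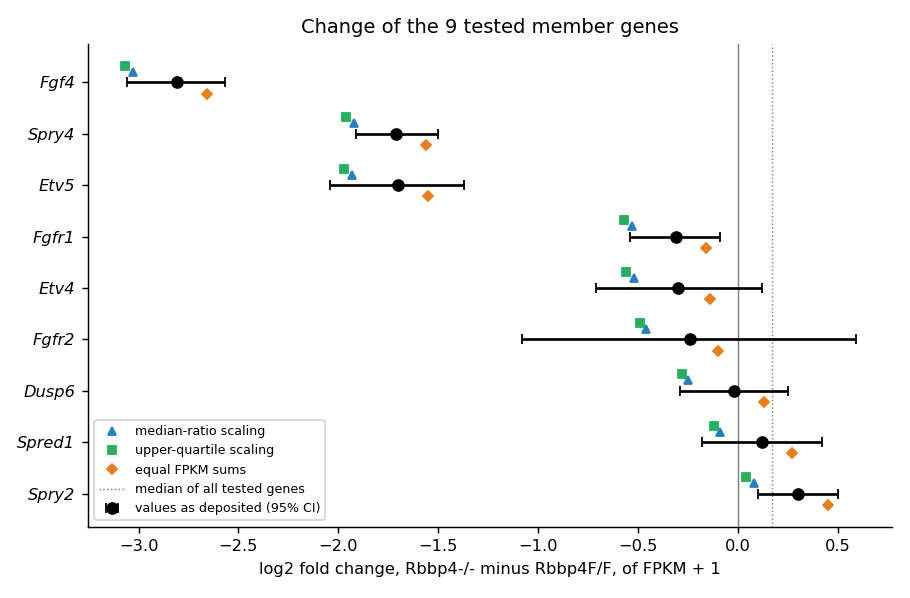
Log2 fold change of FPKM + 1, Rbbp4-/- minus Rbbp4F/F, for the 9 tested members, with black points and 95% confidence intervals for the values as deposited and coloured marks for 3 other scalings. Fgf4 (-2.81), Spry4 (-1.71) and Etv5 (-1.70) stayed far below 0 under each scaling, whereas Spred1 and Dusp6 lay on either side of 0 and Spry2 came close to it.

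The order of the levels changed with these shifts. In the knockout the members ran, from the highest mean, Etv4, Etv5, Dusp6, Spry2, Fgfr1, Fgf4, Spred1, Fgfr2, Spry4 and Fgf5. In the control the order was Etv5, Fgf4, Etv4, Dusp6, Spry4, Fgfr1, Spry2, Fgfr2, Spred1 and Fgf5. In the knockout Etv4 overlapped Etv5, Etv5 overlapped Dusp6 and Spry2 overlapped Fgfr1, and from Fgf4 to Spry4 each neighbour overlapped the next. In the control the overlaps were between Spry2 and Fgfr2 and between Fgfr2 and Spred1.

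The start regions of Fgf4 and Etv5, which fell, and of Spry2 and Dusp6, which did not, are shown to set the sequences beside the changes. Each is the 250 bases before a RefSeq start site on GRCm38.p6, on the strand of the gene, 5′ to 3′. They lie at chr7:144861136-144861385 on the plus strand for Fgf4, chr16:22439571-22439820 on the minus strand for Etv5, chr14:105896820-105897069 on the minus strand for Spry2 and chr10:99262981-99263230 on the plus strand for Dusp6. RefSeq places the Fgf4 start 14019 bases inside the gene as GENCODE M21 draws it, and gives Etv5 another start site downstream that is not shown. Capitals mark the GC box GGGCGG, bound by Sp1-family factors, on the strand shown or the other.
Fgf4: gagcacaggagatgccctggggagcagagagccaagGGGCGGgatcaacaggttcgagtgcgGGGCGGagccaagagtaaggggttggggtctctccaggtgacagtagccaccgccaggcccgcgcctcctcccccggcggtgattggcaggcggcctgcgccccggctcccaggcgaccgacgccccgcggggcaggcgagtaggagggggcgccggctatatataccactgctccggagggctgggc
Etv5: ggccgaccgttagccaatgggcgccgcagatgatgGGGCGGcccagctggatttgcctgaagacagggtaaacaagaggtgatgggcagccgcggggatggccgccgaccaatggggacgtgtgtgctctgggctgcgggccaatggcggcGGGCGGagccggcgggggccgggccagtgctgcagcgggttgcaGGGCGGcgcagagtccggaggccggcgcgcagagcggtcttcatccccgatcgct
Spry2: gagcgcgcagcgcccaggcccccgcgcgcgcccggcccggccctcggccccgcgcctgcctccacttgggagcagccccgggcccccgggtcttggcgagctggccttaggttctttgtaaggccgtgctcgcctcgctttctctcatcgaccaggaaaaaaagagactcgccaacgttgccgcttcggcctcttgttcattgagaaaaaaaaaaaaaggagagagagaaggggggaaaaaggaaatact
Dusp6: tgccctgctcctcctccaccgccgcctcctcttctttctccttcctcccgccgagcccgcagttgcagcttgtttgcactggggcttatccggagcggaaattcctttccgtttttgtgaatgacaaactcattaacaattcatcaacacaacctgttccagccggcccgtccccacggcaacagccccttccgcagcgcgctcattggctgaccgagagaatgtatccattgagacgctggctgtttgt
The GC box occurred 2 times before Fgf4 and 3 times before the Etv5 start shown. It occurred 0 times before the Etv5 start not shown, Spry2, Dusp6 and Fgfr2, and 32.7% of 32851 such windows of all genes hold it. The Fgfr2 window lies before a RefSeq start 2856542 bases inside the gene as GENCODE M21 draws it. Neither the ETS motif CCGGAA (in 12% of windows) nor the octamer ATGCAAAT bound by POU factors (in 1.6%) was found in the 4 windows shown. Only these exact letters were searched, so shorter or variant ETS sites were not counted. All motifs were searched on both strands and no matches overlapped. Start regions of 7 of the 10 members were searched. Spry4 and Fgfr1, which fell, and Etv4, which was not called, were not among them. No motif counts can therefore be set beside the changes of Spry4, Fgfr1 and Etv4. Besides Etv5 and Fgf4, GC boxes also stood before Spred1 (2), which was not called, and before Fgf5 (1), which was not tested. The windows also differ in G and C content, at 71.2% for Fgf4 and the Etv5 start shown, 62.4% for Spry2 and 56.4% for Dusp6. That of Spred1 was 70.8%. The share of windows over all genes was not matched for this content, and a link between motif and change was not tested. The Fgf5 window also held the ETS motif CCGGAA (1).

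The rest of the pathway was taken from 6 further lists with 87 genes, of which 65 were tested, 28 rose and 14 fell (64.6% called, beside 59.1% of all tested genes). The median log2 fold change over these genes was 0.23. Spry3 was not matched in the files. Reads from antisense genes cannot be told apart without strand, and their exons cover 57.2% of the exonic length of Fosl1, 33% of Phlda1, 24.4% of Spry1, 23.4% of Ccnd1, 22.1% of Dusp5 and 13.9% of Fgfr3. Among the members such overlap was found only for Fgfr1, at 1.7%.

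Ligands were mostly low. Of 20 other FGF genes 5 were tested, of which 1 rose and 2 fell (60% called, beside 59.1% of all tested genes). Those not tested stayed at or under 2.17 FPKM in each library. Fgf17, a ligand of the Fgf8 subfamily, had 0.890, 0.440 and 0.690 FPKM in the knockout libraries, against 8.62, 9.02 and 7.50 FPKM in the control libraries (log2 fold change -2.49, SE 0.15, limma adjusted p = 5.56e-05). Fgf13, which encodes an intracellular member that is not secreted, rose to 12 ± 0.947 FPKM in the knockout, against 3.71 ± 0.376 FPKM in the control (1.47, limma adjusted p = 1.32e-04). Fgf21, a metabolic hormone gene named after its values were seen, was listed at 0 in each knockout library and at 1.72, 0.870 and 0.810 FPKM in the control libraries, and it did not pass the filter. Of 6 other receptor genes and cofactors 3 were tested and 0 called. The number with an unadjusted limma p under 0.05 was 1, which was Fgfr3 (log2 fold change 0.47, limma adjusted p = 0.0516), with 1.4 ± 0.240 FPKM in the knockout and 0.743 ± 0.290 FPKM in the control, and it passed with equal FPKM sums (limma adjusted p = 0.0271).

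Heparan sulfate chains hold FGF on its receptor, and their core proteins and enzymes moved both ways. All 13 genes were tested, of which 4 rose and 4 fell, with a median log2 fold change of 0. The share called was 61.5%, near the 59.1% of all tested genes. With median-ratio or upper-quartile scaling 3 were higher and 7 lower, and with equal FPKM sums 4 were higher and 3 lower. The glypican gene Gpc3 had 3.13, 2.47 and 2.16 FPKM in the knockout libraries, against 18.5, 19.9 and 21.3 FPKM in the control libraries (-2.55, limma adjusted p = 4.13e-05). The syndecan gene Sdc1 fell to 12.4 ± 0.455 FPKM in the knockout, against 27 ± 1.16 FPKM in the control. Sdc4, another syndecan gene, rose to 83.6 ± 4 FPKM in the knockout, against 53.1 ± 4.38 FPKM in the control. The sulfatase gene Sulf2 (-0.41) and the sulfotransferase gene Hs6st1 (-0.38) fell, although the Hs6st1 call was lost with equal FPKM sums (limma adjusted p = 0.141) and without control replicate 1 (0.0675) or 2 (0.0635). The polymerase genes Ext1 (-0.25) and Ext2 (0) were not called as deposited and passed as lower with median-ratio and upper-quartile scaling.

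In the list of the ERK cascade, 10 of 23 genes rose and 3 fell, with a median log2 fold change of 0.42. The share called was 56.5%, near the 59.1% of all tested genes. The list also holds Ras GTPase activator genes, which act against the cascade, and genes of kinases activated by ERK. The split depended on the scaling, with 9 higher and 5 lower under median-ratio scaling, 8 higher and 7 lower under upper-quartile scaling, and 12 higher and 3 lower with equal FPKM sums. Nf1, which encodes neurofibromin and was named after its values were seen, was among the 10 (0.42, limma adjusted p = 0.0410) and kept its call in 3 of 13 alternatives. Araf, a kinase gene of the cascade, rose to 75.2 ± 8.69 FPKM in the knockout, against 24 ± 2 FPKM in the control (1.61, limma adjusted p = 6.89e-05). Gab1, a docking protein gene, rose to 185 ± 7.20 FPKM in the knockout, against 94 ± 6.38 FPKM in the control. The phosphatase gene Ptpn11 (0.69) also rose. Mapk3, which encodes ERK1, had 40.7, 31.6 and 33.1 FPKM in the knockout libraries, against 76.2, 70.0 and 80.2 FPKM in the control libraries (-1.09, SE 0.11, limma adjusted p = 3.17e-04). The MEK1 gene Map2k1 (-0.63) and the ERK-activated kinase gene Rps6ka1 (-0.75) fell. Grb2 (-0.01), Shc1 (0.02), Hras (0.06), Nras (0.05) and Map2k2 (-0.04) were not called as deposited, and with upper-quartile scaling Grb2, Shc1 and Map2k2 passed as lower.

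Other feedback genes moved both ways. Of 10 tested, 6 rose and 3 fell, and 90.0% were called, beside 59.1% of all tested genes. These are few genes, and the difference was not tested. Dusp9, an ERK phosphatase gene, had 105, 201 and 173 FPKM in the knockout libraries, against 38.1, 34.6 and 27.6 FPKM in the control libraries (2.18, SE 0.24, limma adjusted p = 4.02e-04). Dusp5, a nuclear ERK phosphatase gene, rose to 43.8 ± 8.29 FPKM in the knockout, against 11.4 ± 2.05 FPKM in the control (1.85). Spred3, a paralog of Spred1, rose to 14.1 ± 2.18 FPKM in the knockout, against 2.79 ± 0.452 FPKM in the control (1.99). Dusp1 (0.92) and Dusp4 (0.65) rose as well, and Spred2 (-0.41) fell. Among the Sprouty and Spred genes measured, those that fell were Spry4, Spred2 and Spry1 (-0.63). Spry1 was named after its values were seen.

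Of 11 other ERK-responsive genes tested, 7 rose and 2 fell, with a median log2 fold change of 0.71. The share called was 81.8%, beside 59.1% of all tested genes, and the difference was not tested. Many of these genes respond to other signals too. The AP-1 genes Fosl1 and Fos had 19 ± 0.75 and 6.76 ± 0.239 FPKM in the knockout, against 2.47 ± 0.757 and 0.657 ± 0.257 FPKM in the control (log2 fold changes 2.55 and 2.24). Phlda1 had 83.1, 89.3 and 90.8 FPKM in the knockout libraries, against 16.6, 20.8 and 12.2 FPKM in the control libraries (2.37, limma adjusted p = 8.92e-05). Junb (1.51) and the survival gene Mcl1 (0.71) rose. The cyclin gene Ccnd1 fell to 18.4 ± 0.266 FPKM in the knockout, against 40.7 ± 4.56 FPKM in the control (-1.10), and Ier3 fell too (-0.97). Ier2 (0.41, limma adjusted p = 0.0498) lost its call in 8 of 13 alternatives, and Myc (-0.50, limma adjusted p = 0.0932) was not called as deposited but passed as lower without control replicate 3 and under median-ratio or upper-quartile scaling.

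**Figure D4:**
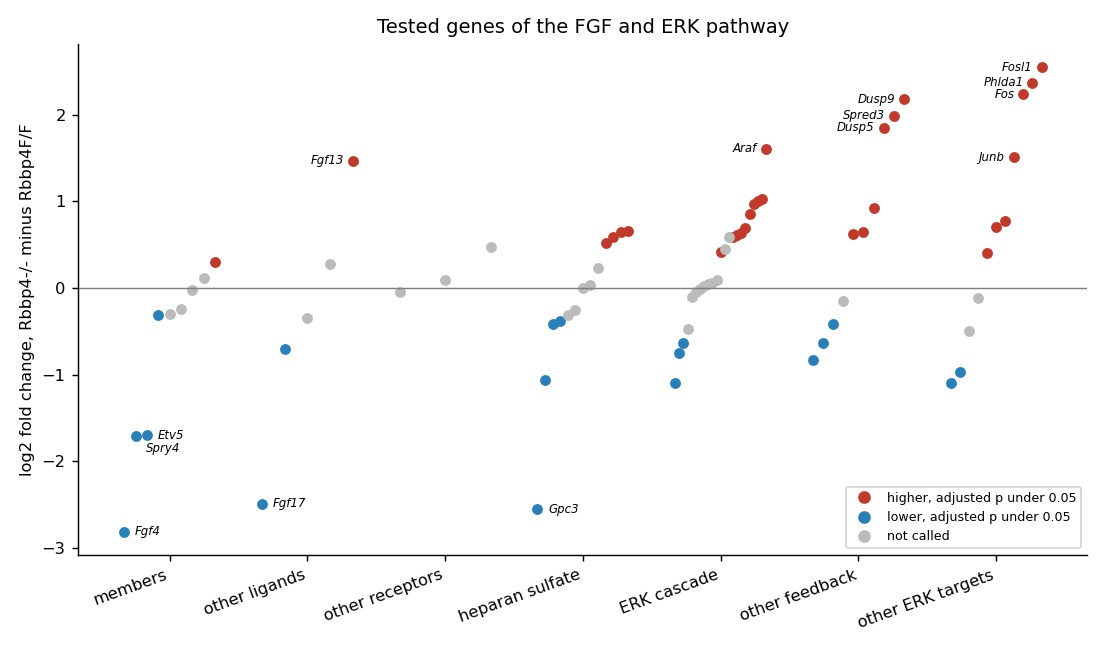
Log2 fold change, Rbbp4-/- minus Rbbp4F/F, of each tested gene in the member list and 6 further pathway lists, sorted within a list, with red for higher and blue for lower at a limma adjusted p under 0.05 and grey for genes not called. Fgf4, Fgf17 and Gpc3 lay lowest, at -2.81, -2.49 and -2.55, and Fosl1, Phlda1, Fos and Dusp9 highest, at 2.55, 2.37, 2.24 and 2.18.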

How the data were processed

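RNA was extracted with Trizol and made into Illumina TruSeq libraries, per the labels' protocols. Tools listed without roles in the submitters' processing notes are HISAT2 2.1.0, RSEM, FastQC and DESeq 1.26.0, and the build is GRCm38.p6. Annotation and strand use are not given there. The values the authors deposited were taken as FPKM. They are not whole numbers, and their sums of 697933 to 800146 differ between libraries, as TPM or CPM sums would not. The depths, and a shortening of lengths by 270 bases, were chosen to put low values of single-transcript genes nearest to whole steps. With these choices 84.3% to 87.5% of the same values lay within 0.15 of a whole step, so that share is no independent check. Counts were not recovered for all genes. Of 52872 rows per file, 2 held stray text and were left out, and 51633 of 51912 Ensembl identifiers matched a symbol in GENCODE M21 (GRCm38).

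The log2(FPKM + 1) of genes reaching 1 FPKM in 3 or more libraries was fitted in limma 3.58.1 (R 4.3.3) on group alone, with a mean trend and two-sided tests, and with Benjamini-Hochberg adjustment over all 13579 tested genes and a threshold of 0.05. Fold changes on this scale understate those of low genes. The fit was tested on simulated data. Paralog ratios were compared by exact permutation. The members and lists were chosen with earlier results of these data known. From the 6 lists, up to 4 called genes with the smallest adjusted p and genes with a group mean of at least 20 FPKM were named, and others are marked as named after their values were seen. Values of some genes that this rule takes are not reported here. Start regions are from RefSeq on GRCm38.p6. Alternatives were 3 scalings, a pseudocount of 0.1, no filter, a filter of 5 FPKM, the replicate number as a block, and each library left out in turn (1 FPKM in 2 libraries).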

Additional observations from a re-analysis of the deposited data

How the results depend on the processing

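Fgf4, Spry4 and Etv5 stayed called as lower in each of 13 alternatives, at log2 fold changes of -3.07 to -2.66, -1.96 to -1.56 and -1.97 to -1.55. The number of members called higher moved from 1 to 0 with either median-ratio or upper-quartile scaling, and ran from 0 to 1 with 1 library left out, since Spry2 alone makes it. The number called lower, 4 as deposited, was 5 with median-ratio or upper-quartile scaling and 3 with equal FPKM sums. It ran from 3 to 4 with 1 library left out. Among other pathway genes, 22 were lower with upper-quartile scaling (14 as deposited). Signs turned for Fgfr2, which ran from -0.56 to 0.16 with 1 library left out, for Spred1 with median-ratio (-0.09) and upper-quartile scaling (-0.12), and for Dusp6 with equal FPKM sums (0.13) and over a range of -0.14 to 0.04 with 1 library left out. None of these was called, and the cause was not tested. Over all genes, the share of calls that were higher was 62% as deposited, 46.3% after median-ratio scaling, 44% after upper-quartile scaling and 71.9% after rescaling to equal sums. Deviations of same-numbered libraries correlated at 0, -0.01 and 0.05, so the numbers share no source the data show. With the replicate block Fgf4 had -2.81, Spry4 -1.71 and Etv5 -1.70, and 4872 genes were higher and 2907 lower. No member's call changed with the block, although Fgfr1 came to a limma adjusted p of 0.0499. Depth limits Fgf5 and the other low ligands, which stand on few fragments.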
